A study of Mus musculus with 39 samples.

Results

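Type I interferon response genes were described here as a set of 45 named genes. They were found by gene symbol in the female and the male count table, and all 45 were listed among 46333 genes in the female table and among 54532 genes in the male table. The set holds 2 receptor genes, 5 transcription factors, 13 nucleic acid sensors, 18 antiviral effectors and 7 modifiers and brakes. RNA was measured by mRNA sequencing in CD11b+ cells, chiefly microglia, that were taken from the mouse cerebrum with antibody-coated magnetic beads. Wild type (WT) mice and 5XFAD mice, which carry human transgenes with familial Alzheimer's disease mutations driven by the neuronal Thy1 promoter, were kept in chronic intermittent hypoxia (CIH) or in normoxia (NX). The question was how genotype and a sleep apnoea-like oxygen exposure bear on microglial RNA. CIH was given from 4 months of age for 8 hours a day as intervals of 90 seconds, with oxygen falling to 6.5% in CIH and held at 21% in NX, according to the sample labels. The study's methods give a lower oxygen level and a longer daily exposure. WT females of C57BL/6J were bred to B6SJL-derived 5XFAD males to give the animals, and the NX controls were kept under matched sound and air flow. Female groups, 10 months old, comprised WT NX with 4 libraries and WT CIH, 5XFAD NX and 5XFAD CIH with 5 libraries each. The study's methods describe groups of equal size, and the WT NX females analysed here were 1 fewer. They also report 1 outlying female NX sample, and whether that is the missing library is not stated. Male groups, 8 months old, comprised 5 libraries in each of the same 4 groups. By the study's methods the exposure ran until harvest, so females were exposed for longer. Because sex, age, length of exposure and table went together, they cannot be told apart, and no test was run between females and males.

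Type I interferons are secreted alarm signals that bind a receptor made of Ifnar1 and Ifnar2 on the cell surface. Kinases on that receptor activate a transcription factor complex with Stat2 and Irf9, which binds the interferon-stimulated response element (ISRE) in front of target genes. The products sense foreign or misplaced nucleic acids, block viral replication, or feed back on the pathway, and microglia in brains with amyloid plaques are known to include cells with high expression of such genes.

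Promoters of the members were searched on both strands for the ISRE, taken as GAAA, then 2 bases of any kind, then GAAA (TTTC, 2 bases and TTTC on the other strand), in windows of 250 bases before to 50 bases after each RefSeq start on GRCm38.p6. Promoters were given for 35 of the 45 members. The motif was found in 18 of these 35 genes (51.4%), against 3.99% of the 27025 genes with a promoter in the table. A match is a description of the letters and not of binding. The windows of 250 bases before the start of Isg15, Ifit3, Ifit3b and Ifnar1 are shown because they place a gene with overlapping matches, a near-identical gene pair and a receptor without a match side by side, with ISRE matches in capitals.
Isg15, chr4:156200819-156201068, minus strand: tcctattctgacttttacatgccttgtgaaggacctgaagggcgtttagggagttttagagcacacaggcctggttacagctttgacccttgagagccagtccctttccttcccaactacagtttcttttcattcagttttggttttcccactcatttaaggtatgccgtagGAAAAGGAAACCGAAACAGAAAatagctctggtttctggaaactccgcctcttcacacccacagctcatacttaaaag
Ifit3, chr19:34583279-34583528, plus strand: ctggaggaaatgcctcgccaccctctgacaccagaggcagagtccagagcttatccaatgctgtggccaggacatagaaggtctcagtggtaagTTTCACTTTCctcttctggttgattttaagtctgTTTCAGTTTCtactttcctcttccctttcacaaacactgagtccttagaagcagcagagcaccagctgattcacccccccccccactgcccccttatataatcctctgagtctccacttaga
Ifit3b, chr19:34607707-34607956, plus strand: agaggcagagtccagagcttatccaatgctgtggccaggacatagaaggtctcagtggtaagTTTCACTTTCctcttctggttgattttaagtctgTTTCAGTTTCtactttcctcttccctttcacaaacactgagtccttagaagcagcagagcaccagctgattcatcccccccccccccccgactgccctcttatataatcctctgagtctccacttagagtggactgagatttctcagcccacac
Ifnar1, chr16:91484965-91485214, plus strand: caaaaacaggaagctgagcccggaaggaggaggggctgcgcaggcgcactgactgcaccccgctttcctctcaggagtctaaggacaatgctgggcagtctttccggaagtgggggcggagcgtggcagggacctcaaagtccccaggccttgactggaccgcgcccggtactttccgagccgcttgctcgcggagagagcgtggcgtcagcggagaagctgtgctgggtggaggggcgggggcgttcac
Isg15 has 3 overlapping matches in 1 run of capitals. Ifit3 and Ifit3b carry the same 2 matches, and their windows share an unbroken run of 169 identical bases. The genes are close copies, so the counting could split reads between them, and each value for Ifit3 and Ifit3b is uncertain to that extent. Ifnar1 has no match in this window.

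Total counts ranged from 14731683 to 25906121 in the 19 female libraries and from 13457293 to 23095627 in the 20 male libraries. No pair of libraries within a group matched within sampling noise (76 pairs, lowest chi-square per degree of freedom 4.87). Summed microglial markers were at 18380 to 21460 CPM in WT and 14450 to 16520 CPM in 5XFAD females, and at 17310 to 22250 CPM in WT and 12970 to 15110 CPM in 5XFAD males, the highest of the cell type sums in every group. Astrocyte markers summed to 5.06 to 40.9 CPM in WT and 16.6 to 509 CPM in 5XFAD females, and to 4.68 to 47.2 CPM in WT and 118.5 to 871 CPM in 5XFAD males. T and NK cell markers were at 0.694 to 1.8 CPM in WT and 2.35 to 10.7 CPM in 5XFAD females, and at 1.48 to 3.44 and 4.15 to 15.9 CPM in males. Endothelial sums were 44.9 to 112.7 CPM in WT and 54.3 to 270.4 CPM in 5XFAD females, and 47.5 to 145.9 and 97.7 to 167.1 CPM in males. Oligodendrocyte sums were 54.3 to 213.5 and 80.7 to 335.9 CPM in females and 72 to 168.6 and 150.7 to 445.5 CPM in males. Border macrophage markers were lower in 5XFAD by their medians, with sums of 127.3 to 296.4 CPM in WT and 77.8 to 143.6 (NX) or 59.8 to 115.4 (CIH) CPM in 5XFAD females, and of 124.7 to 283.9 and 77.8 to 163.9 CPM in males. Markers listed for plasmacytoid dendritic cells other than the member Bst2 were Siglech, Ccr9, Tcf4 and Klk1. They summed to 1564 to 1873 CPM in WT and 1115 to 1489 CPM in 5XFAD females, and to 1367 to 1618 and 1001 to 1294 CPM in males. The share of microglial RNA in this sum was not tested, so the sum is not read as a measure of such cells. Dissociation response genes summed to 628.8 to 1012 CPM in WT NX and 383.1 to 557.4 CPM in 5XFAD NX males, and overlapped between genotypes in the other comparisons. The part of any of these in the genotype differences below was not tested. Fewer cells of a type and less RNA per cell cannot be told apart in such bulk samples. Values are in CPM, a gene's read count scaled to the size of its library with TMM factors within each sex. The log2 fold change (log2FC) is that of 5XFAD over WT or of CIH over NX. A gene was called where its Benjamini-Hochberg adjusted p (false discovery rate, FDR) was below 0.05 and its absolute log2FC above 1 in edgeR's quasi-likelihood test.

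Some libraries stood apart on the members before any comparison. Ifi44l had 0 counts in all libraries, so 44 members were tested. The mean log2 CPM over these 44 members was used as a library score. In F WT CIH 1 the score was 4.90, against 3.95 to 4.06 in the other WT CIH females, and this library was the highest of its group for 42 of 44 members and for 26.4% of all 15582 genes. F 5XFAD NX 4 scored 4.48 in a group that reached 6.11, and was the lowest of its group for 39 of 44 members and for 36.2% of all genes. Its neutrophil marker sum was 207.2 CPM, against 8.38 to 48.4 CPM in the others of its group. Its astrocyte sum was 16.6 CPM (others 125.1 to 241.1), its endothelial sum 54.3 CPM (others 122.4 to 270.4) and its oligodendrocyte sum 80.7 CPM (others 199.7 to 221.9). In WT NX females these sums were 13.2 to 40.9, 56.8 to 112.7 and 105.1 to 213.5 CPM. Other sums of F 5XFAD NX 4 lay outside those of WT NX. Microglial markers were at 16210 CPM (WT NX 18380 to 20750) and border macrophage markers at 77.8 CPM (159.9 to 296.4). T and NK cell markers were at 2.35 CPM (0.694 to 1.76) and the Siglech, Ccr9, Tcf4 and Klk1 sum at 1414 CPM (1564 to 1873). F 5XFAD NX 1 was the highest of the same group for 38 members (18.7% of all genes), and F WT NX 2 the lowest of WT NX for 34 (29.7%). F WT NX 4 was the highest of WT NX for 26 (27.1%). Among males, M WT CIH 1 was the highest of its group for 29 members (26.7% of all genes), and M WT NX 5 of its group for 26 (17.8%). M 5XFAD NX 4 and 5 differed from the other 3 libraries of their group by gene length and not by one direction: Spearman's rho between a gene's deviation in the library and its log2 length was 0.266 and 0.283 in these 2, and −0.255 to −0.167 in the other 3, over all tested genes. In females the same rho was 0.247 in F 5XFAD NX 4 and −0.101 to 0.073 in the others of its group.

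**Figure D1:**
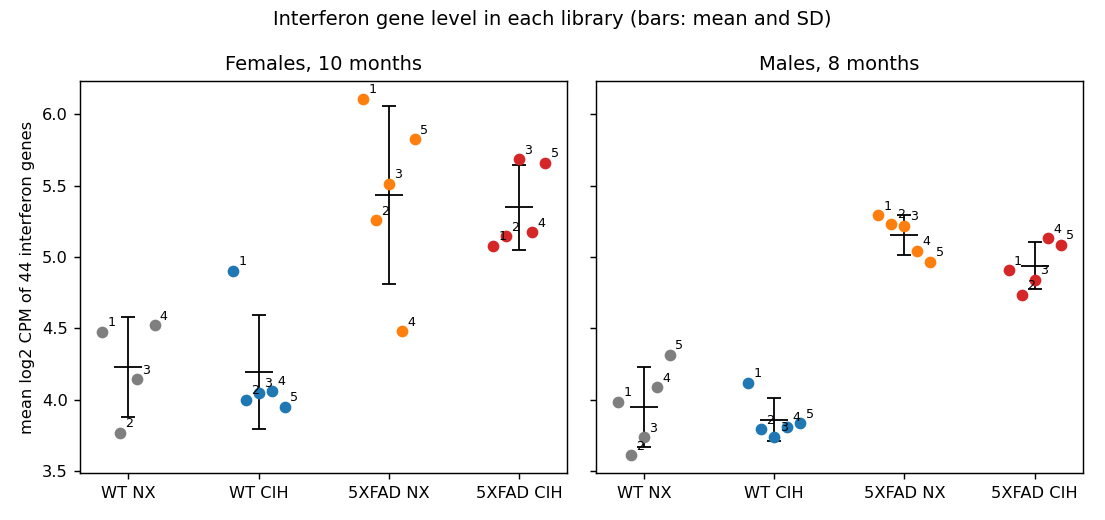
Mean log2 CPM over the 44 tested members (vertical axis) in each library, by sex, genotype and treatment, with 1 point per library, numbered by replicate, and bars for the group mean and SD. 5XFAD libraries lie above WT libraries of the same sex and treatment in every male group, with male scores of 4.97 to 5.29 in 5XFAD NX and 3.61 to 4.32 in WT NX, and F 5XFAD NX 4 at 4.48 is the only 5XFAD library within the range of its WT controls (3.77 to 4.52).

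Levels per kilobase of gene length were scaled to library totals alone, without the TMM factors used for the other CPM values. On that scale Bst2 had the highest median level of the members over all libraries of each sex. Bst2 stood at 122.3 per kilobase in females and 145.4 in males. In females it was followed by Ifnar2 (71.5), Irf1 (38.8) and Trim30a (38.2). Males had Ifi27l2a (90.7), Ifnar2 (53.7) and Trim30a (25.1) in the next places. The gene lengths of the 2 tables differ (for Irf1, 2030 bases in the female and 3976 in the male table), so the orders cannot be compared between sexes. The order also changed with genotype. In 5XFAD females Ifi27l2a was second, at a mean of 134.5 (SD 75.3, n = 5) in NX and 139.4 (SD 16.5, n = 5) in CIH, where Ifnar2 was at 79.4 (SD 10.2) and 83 (SD 4.73). In 5XFAD males the mean level of Ifi27l2a was 236.5 (SD 101.2, n = 5) in NX and 243 (SD 93.5, n = 5) in CIH, beside 223 (SD 78.7) and 227.1 (SD 69.3) for Bst2, differences within the spread. In WT males Ifi27l2a was at 34.3 (SD 14.3) and 16 (SD 5.07), below Ifnar2 at 51.9 (SD 1.81) and 45 (SD 2.79), and Bst2 was at 120 (SD 28.3) and 78.4 (SD 4.49). Over all libraries Ifi44 was lowest of the detected members in both sexes, at 0.967 in females and 0.233 in males.

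Genotype went with higher levels of most members in both sexes and under both treatments. In NX females 25 of 44 members rose in 5XFAD and 0 fell by edgeR's call, where 5.99% of all tested genes were called, 4.4% as higher and 1.59% as lower. The median log2FC was 1.30 over the members and −0.02 over all genes. In CIH females 24 members rose and 1 fell, where 13% of all genes were called, 8.83% higher and 4.12% lower. The medians were 1.16 and −0.02. In NX males 24 rose and 1 fell, where 8.25% of all genes were called, 5.94% higher and 2.31% lower. The medians were 1.12 and 0.02. In CIH males 24 rose and 2 fell, where 18.7% of all genes were called, 11.8% higher and 6.88% lower. The medians were 1.12 and −0.06. The groups did not overlap, with every 5XFAD library higher, for 14 members in NX females (3.43% of all genes), 21 in CIH females (18.8%), 29 in NX males (8.57%) and 28 in CIH males (19.4%). P-values throughout measure the spread between these libraries.

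Scaling moved the centre of all genes but not the direction of the members as a set. With library size alone in place of TMM factors, the median log2FC of all genes was −0.17, −0.21, −0.16 and −0.43 in NX females, CIH females, NX males and CIH males. That of the members was 1.11, 0.97, 0.91 and 0.74 in the same order. The members called higher were then 19, 21, 19 and 16, and those called lower 0, 1, 1 and 2. Of all genes called, 1317 of 1932 were higher in CIH females with TMM factors and 1024 of 2019 with library size alone. The counts were 881 of 1224 and 622 of 1223 in NX males, and 1746 of 2764 and 1147 of 3674 in CIH males.

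**Figure D2:**
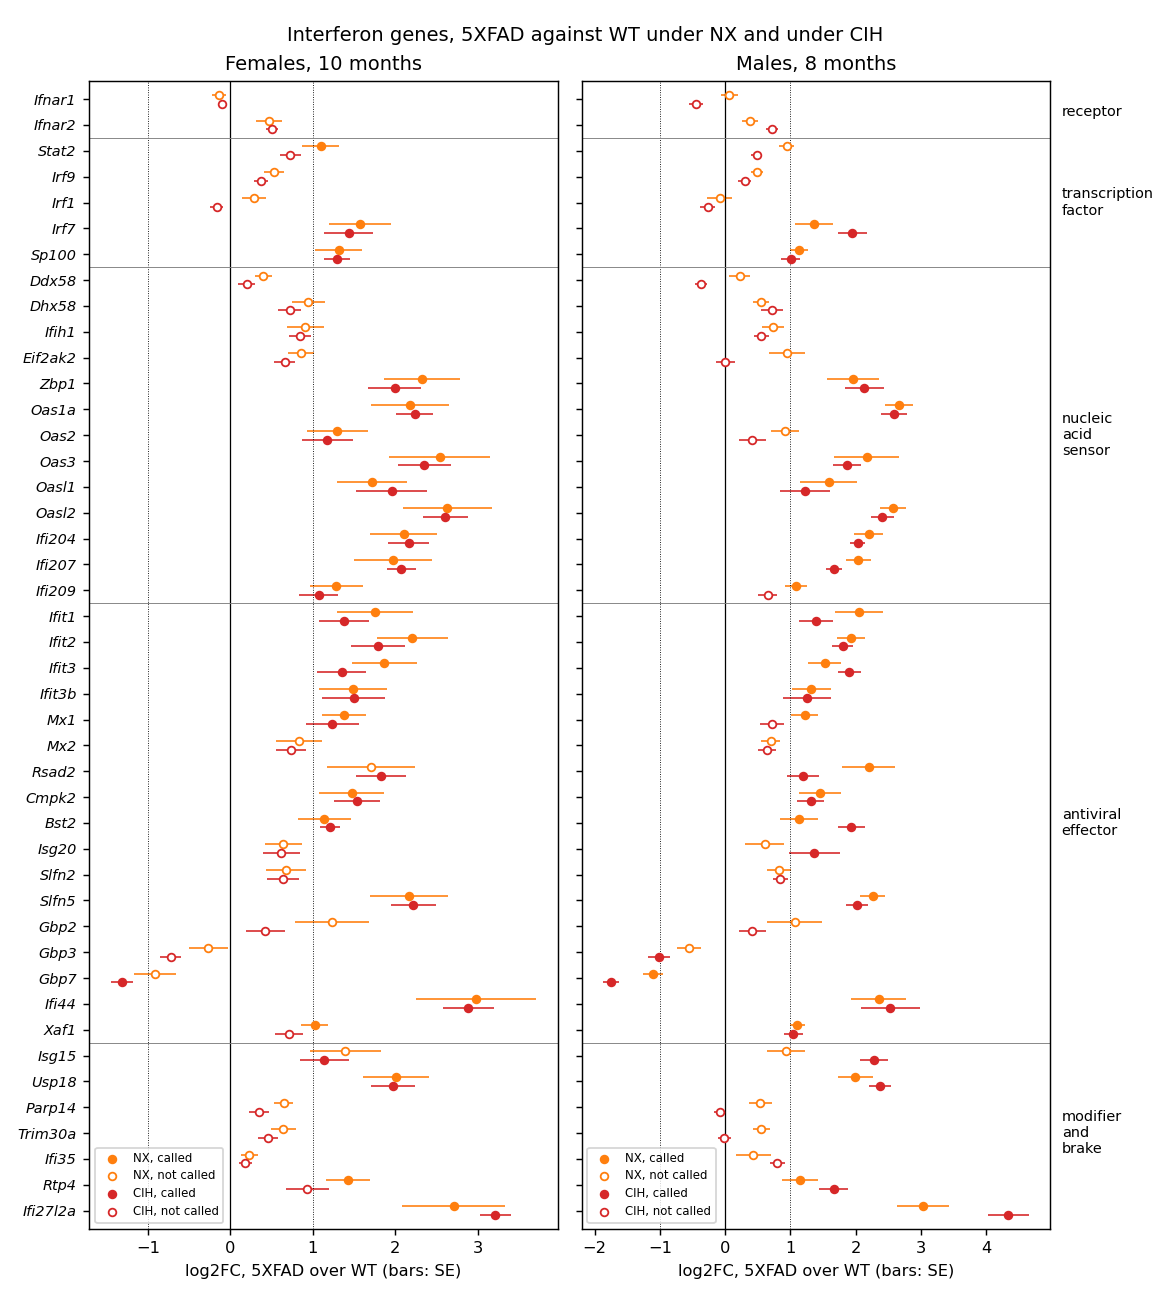
log2FC of 5XFAD over WT (horizontal axis) for each of the 44 tested members, ordered by role, in the 4 sex-by-treatment comparisons, with error bars of 1 SE and filled points for calls. Ifi27l2a lies furthest to the right in males under CIH (4.34), Gbp7 furthest to the left (−1.75), and both receptor genes stay within 1 of 0.

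The number of members called in NX females depended on almost every single library. Leaving out any of F WT NX 2, F WT NX 3 or F 5XFAD NX 5 left 0 members called by edgeR, and 0.189% to 1.47% of all genes. Leaving out any other WT NX library or F 5XFAD NX 1, 2 or 3 left 4 to 14 members and 0.696% to 3.67% of all genes. Leaving out F 5XFAD NX 4 gave 31 members (30 higher, 1 lower) and 13.3% of all genes. In each of these fits that left out 1 library, the median log2FC of the members was between 1.12 and 1.49, and 41 of 44 log2FC values were above 0. An unadjusted p below 0.05 was found for 38 to 42 members and 26.4% to 52.2% of all genes in these fits, beside 40 members and 34.1% of all genes with every library in.

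Neither receptor gene was called in a genotype comparison. Ifnar1, the receptor subunit that recruits the kinase Tyk2, had 149.6, 144, 134 and 151 CPM in WT NX, 138, 140.2, 136, 147 and 139 CPM in WT CIH, 123, 118, 143, 143 and 127 CPM in 5XFAD NX and 122, 139.7, 138, 121 and 127 CPM in 5XFAD CIH in females. In males its levels were 104, 107, 99, 98 and 92.4 CPM in WT NX, 129, 129.5, 149, 137 and 137 CPM in WT CIH, 86.7, 97.6, 85.1, 125 and 128 CPM in 5XFAD NX and 114, 103, 102, 101 and 77.5 CPM in 5XFAD CIH. The female groups overlapped, while all CIH males with 5XFAD were below all with WT, and M 5XFAD NX 4 and 5 were above the rest of their group. By edgeR the log2FC was −0.14 (SE 0.08, adjusted p = 0.254) in NX females and −0.10 (SE 0.05, adjusted p = 0.138) in CIH females. For males it was 0.06 (SE 0.14, adjusted p = 0.814) under NX and −0.44 (SE 0.10, adjusted p = 0.00305) under CIH.

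Ifnar2, the subunit that carries the docking site for Stat2, had 183, 180.3, 191 and 180.3 CPM in WT NX, 193, 172, 168, 199.7 and 199 CPM in WT CIH, 308, 272, 238, 164 and 289.6 CPM in 5XFAD NX and 291, 243, 247, 259 and 267 CPM in 5XFAD CIH in females. Male libraries had 157, 158, 155, 172 and 169 CPM in WT NX, 147, 137, 132, 128 and 114 CPM in WT CIH, 256, 202, 249, 177 and 174 CPM in 5XFAD NX and 219, 186, 214, 216 and 243 CPM in 5XFAD CIH. Every 5XFAD library was above every WT library of its sex and treatment, save F 5XFAD NX 4 at 164.2 CPM. The log2FC of Ifnar2 stayed below 1 in each comparison. It was 0.47 (SE 0.16, adjusted p = 0.0704) and 0.50 (SE 0.07, adjusted p = 5.42e-05) in NX and CIH females and 0.38 (SE 0.13, adjusted p = 0.0552) and 0.72 (SE 0.10, adjusted p = 2.65e-05) in NX and CIH males by edgeR.

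Of the 5 transcription factors, 3 rose in NX females and 2 in each of the other comparisons, and none fell. Irf7, the factor that amplifies interferon gene transcription, was at 23.7, 10.8, 13.4 and 20.9 CPM in WT NX, 32.2, 12.4, 13.9, 12.3 and 10.5 CPM in WT CIH, 84.5, 37.8, 45.5, 22.7 and 65.6 CPM in 5XFAD NX and 30.7, 38.4, 62, 32 and 53.9 CPM in 5XFAD CIH among females. Its male values were 11.6, 13.7, 13.3, 18 and 29.1 CPM in WT NX, 17.4, 9.02, 9.75, 9.89 and 9.97 CPM in WT CIH, 56.3, 44.3, 63.1, 27.3 and 28.6 CPM in 5XFAD NX and 34.9, 28.2, 40.1, 57.5 and 53.8 CPM in 5XFAD CIH. Under NX the genotypes overlapped in both sexes, through F 5XFAD NX 4 in females and through M WT NX 5 and M 5XFAD NX 4 and 5 in males. In CIH females they overlapped through F WT CIH 1. Irf7 rose in all 4 comparisons. Its log2FC was 1.57 (SE 0.38, adjusted p = 0.0309) and 1.44 (SE 0.30, adjusted p = 0.00119) in NX and CIH females and 1.36 (SE 0.30, adjusted p = 0.00647) and 1.95 (SE 0.22, adjusted p = 6.85e-06) in NX and CIH males (edgeR).

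Stat2, the part of the ISRE-binding complex that activates transcription, stood at 60.5, 56.4, 52.5 and 73.6 CPM in WT NX, 87.1, 64.4, 65.5, 59.2 and 54.5 CPM in WT CIH, 186, 101, 134, 80.8 and 147 CPM in 5XFAD NX and 95.7, 99.7, 122, 96 and 129 CPM in 5XFAD CIH in the female groups. In the male groups it stood at 55.6, 44.6, 46.5, 50.2 and 40.8 CPM in WT NX, 64.5, 60.8, 59.3, 60.7 and 55 CPM in WT CIH, 89.3, 87.5, 90.1, 95 and 93.3 CPM in 5XFAD NX and 92.5, 84.6, 84.2, 79.3 and 76.2 CPM in 5XFAD CIH. No 5XFAD library overlapped with WT in any of the 4 comparisons. The call was made in NX females alone, with a log2FC of 1.09 (SE 0.22, adjusted p = 0.0205). The other 3 values were 0.73 (SE 0.12, adjusted p = 0.00027) in CIH females, 0.94 (SE 0.11, adjusted p = 6.03e-05) in NX males and 0.48 (SE 0.09, adjusted p = 0.000429) in CIH males by edgeR.

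Irf9, which gives the same complex its DNA contact, had 72, 68.5, 69.6 and 75.1 CPM in WT NX, 92.7, 71.4, 65.2, 71.8 and 68.4 CPM in WT CIH, 117, 107, 106, 74 and 109 CPM in 5XFAD NX and 92.8, 92.3, 92, 88.3 and 107 CPM in 5XFAD CIH in female libraries. Males had 77.5, 68.7, 70, 71.5 and 72.4 CPM in WT NX, 80.7, 72.9, 65.5, 78.7 and 72.3 CPM in WT CIH, 95.3, 108, 106, 104 and 91.1 CPM in 5XFAD NX and 92.3, 75.2, 92.7, 101 and 90.1 CPM in 5XFAD CIH. The genotypes overlapped in females through F 5XFAD NX 4 and F WT CIH 1, and in CIH males through M 5XFAD CIH 2. All 4 differences had an adjusted p below 0.05 with a log2FC below 1, from 0.30 in CIH males to 0.53 in NX females by edgeR. Irf9 was therefore not called. Sp100, a component of PML nuclear bodies, rose in all 4 comparisons, with log2FC values of 1.31 and 1.29 in NX and CIH females and 1.13 and 1.00 in NX and CIH males. The call in CIH males stood at the limit and was lost in 9 of 20 alternatives (lowest log2FC 0.63).

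Irf1, a factor that also answers interferon gamma, had 71.2, 73.2, 70.1 and 80.5 CPM in WT NX, 98.9, 76.8, 83.2, 83 and 77.9 CPM in WT CIH, 109, 67.9, 81.4, 78.4 and 112 CPM in 5XFAD NX and 70.8, 72.6, 71.1, 69.3 and 85.7 CPM in 5XFAD CIH in females. It had 74, 68.8, 74, 66.4 and 85.3 CPM in WT NX, 81.7, 75.8, 74, 75.8 and 72.1 CPM in WT CIH, 105, 64.2, 79, 49.7 and 49.9 CPM in 5XFAD NX and 79.3, 49.9, 65.4, 63.6 and 55.6 CPM in 5XFAD CIH in males. M 5XFAD NX 1 and F 5XFAD NX 1 and 5 were high, M 5XFAD NX 4 and 5 were low, and the genotypes overlapped in all 4 comparisons. The log2FC was 0.28 (SE 0.15, adjusted p = 0.2) and −0.17 (SE 0.08, adjusted p = 0.0897) in NX and CIH females and −0.08 (SE 0.19, adjusted p = 0.832) and −0.26 (SE 0.11, adjusted p = 0.0702) in NX and CIH males (edgeR). Irf1 was called in none of them.

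Nucleic acid sensors included some of the largest rises. Of 13 sensors, 9 rose in NX females, 9 in CIH females, 8 in NX males and 7 in CIH males, with none that fell. Oasl2, an oligoadenylate synthetase-like protein, had 20.9, 8.57, 14.4 and 21.9 CPM in WT NX, 30.1, 10.3, 13.2, 13.1 and 12 CPM in WT CIH, 179, 85.2, 85.5, 21.3 and 141 CPM in 5XFAD NX and 73.8, 70.7, 127, 87.1 and 116 CPM in 5XFAD CIH in females. It measured 14.2, 9.48, 14.5, 15 and 23 CPM in WT NX, 19.2, 11.2, 12, 12.8 and 10.9 CPM in WT CIH, 89.8, 85.7, 106, 89.3 and 80.3 CPM in 5XFAD NX and 69.8, 49.4, 66.8, 82.8 and 79.8 CPM in 5XFAD CIH in males. The genotypes were separate in all comparisons but NX females, where F 5XFAD NX 4 lay within the WT range. Oasl2 rose 6.2-fold in NX females, 6.09-fold in CIH females, 5.92-fold in NX males and 5.3-fold in CIH males. These folds equal log2FC values of 2.63 (SE 0.54, adjusted p = 0.0211), 2.61 (SE 0.27, adjusted p = 4.01e-06), 2.56 (SE 0.20, adjusted p = 2.25e-06) and 2.41 (SE 0.18, adjusted p = 9.45e-08), in the same order, by edgeR.

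Oas1a, a synthetase of the short oligoadenylates that switch on RNase L, was among the 2 largest rises in males and had 8.02, 5.67, 4.6, 8.52 and 9.87 CPM in WT NX, 7.38, 7.84, 4.36, 7.16 and 7.9 CPM in WT CIH, 57.7, 44, 50.4, 42.1 and 37.9 CPM in 5XFAD NX and 34, 30.6, 38, 50.05 and 54.7 CPM in 5XFAD CIH there. Female libraries had 18.7, 7.64, 11.4 and 17.4 CPM in WT NX, 21.6, 9.33, 12.2, 9.92 and 8.72 CPM in WT CIH, 96.2, 62.6, 60.9, 15 and 78.8 CPM in 5XFAD NX and 49.5, 51, 70.5, 47.2 and 69.6 CPM in 5XFAD CIH. The genotypes did not overlap in either male comparison or in CIH females. NX females overlapped through F 5XFAD NX 4. The edgeR log2FC for Oas1a was 2.67 (SE 0.21, adjusted p = 3.08e-06) in NX males and 2.59 (SE 0.20, adjusted p = 1.15e-07) in CIH males. Among females it reached 2.18 (SE 0.47, adjusted p = 0.0243) with NX and 2.24 (SE 0.23, adjusted p = 2.92e-06) with CIH. Its neighbour Oas1g is a close copy, so reads may be split between them. Oas3, another synthetase of the same cluster, rose in all 4 comparisons. The changes were 2.54 and 2.35 in NX and CIH females and 2.17 and 1.87 in NX and CIH males on the log2 scale.

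Zbp1, a sensor of Z-form nucleic acids that can start necroptosis, measured 8.96, 3.7, 5.79 and 8.48 CPM in WT NX, 14, 4.16, 5.4, 5.09 and 3.87 CPM in WT CIH, 59.1, 26.3, 31.8, 10.4 and 42.4 CPM in 5XFAD NX and 22.9, 17.6, 30.6, 20.7 and 36 CPM in 5XFAD CIH in females. The male libraries measured 7.97, 1.91, 7.37, 6.31 and 14.3 CPM in WT NX, 11.2, 5.72, 3.91, 3.31 and 5.13 CPM in WT CIH, 41.1, 29, 37, 20.8 and 19.5 CPM in 5XFAD NX and 24.9, 18, 21, 26.7 and 37.1 CPM in 5XFAD CIH. F WT CIH 1 and M WT NX 5 were the highest WT libraries, and even these lay below every 5XFAD library of the same sex and treatment. Zbp1 rose by a log2FC of 2.33 (SE 0.46, adjusted p = 0.0193) in NX females, 1.99 (SE 0.32, adjusted p = 0.000191) in CIH females, 1.96 (SE 0.40, adjusted p = 0.00429) in NX males and 2.13 (SE 0.30, adjusted p = 3.95e-05) in CIH males (edgeR).

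Ifi204, a DNA-binding protein of the PYHIN family that is linked to STING signalling, had 26.1, 13.6, 19.8 and 27.5 CPM in WT NX, 33.8, 14.3, 16.3, 14.7 and 15.6 CPM in WT CIH, 150.4, 79.6, 97.3, 29.2 and 111 CPM in 5XFAD NX and 63.2, 63.6, 102, 77.4 and 112 CPM in 5XFAD CIH in females. Males measured 16.1, 9.48, 8.6, 15.2 and 21.9 CPM in WT NX, 16.1, 14.5, 14.1, 13.8 and 13.4 CPM in WT CIH, 64.9, 59.6, 67.5, 68.2 and 65.8 CPM in 5XFAD NX and 59, 53.1, 49.9, 58.7 and 71.1 CPM in 5XFAD CIH. No 5XFAD library was as low as any WT library of its sex and treatment, although F 5XFAD NX 4 at 29.2 CPM came close to F WT NX 4 at 27.5 CPM. The rise was 2.10 (SE 0.41, adjusted p = 0.0193) and 2.16 (SE 0.25, adjusted p = 8.7e-06) in log2FC in NX and CIH females and 2.20 (SE 0.23, adjusted p = 2.53e-05) and 2.03 (SE 0.11, adjusted p = 6.59e-09) in NX and CIH males by edgeR. Ifi207, a related PYHIN gene in the same cluster on chromosome 1, rose in all 4 comparisons by 1.67 (CIH males) to 2.07 (CIH females) on the log2 scale. Such family members resemble each other, so their reads could be shared.

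Ddx58, which encodes the RNA sensor RIG-I, was called in none of the 4 comparisons. It measured 47, 44.7, 49.6 and 51.2 CPM in WT NX, 61.8, 45, 44.7, 47.8 and 46.7 CPM in WT CIH, 75.2, 59.1, 63.8, 51.6 and 67.5 CPM in 5XFAD NX and 45, 54.8, 66.1, 55.2 and 57.9 CPM in 5XFAD CIH in females. In males it measured 37.7, 36.7, 42.5, 34.8 and 32.9 CPM in WT NX, 49.9, 46.7, 44.3, 45.7 and 48.5 CPM in WT CIH, 34.7, 39.4, 32.8, 51.3 and 56.7 CPM in 5XFAD NX and 36.3, 36.3, 38, 37.3 and 32.6 CPM in 5XFAD CIH. The 5XFAD libraries were all above WT in NX females and all below WT in CIH males, with M 5XFAD NX 4 and 5 the highest of the NX males. The female log2FC values were 0.40 (SE 0.10, adjusted p = 0.0387) under NX and 0.20 (SE 0.11, adjusted p = 0.137) under CIH by edgeR. The male values were 0.22 (SE 0.16, adjusted p = 0.42) under NX and −0.37 (SE 0.09, adjusted p = 0.00363) under CIH.

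Ifih1, the RNA sensor MDA5, had 32, 28.4, 31.6 and 35.6 CPM in WT NX, 38.2, 30.7, 26.7, 31.2 and 27.3 CPM in WT CIH, 81.1, 69, 54.3, 31.7 and 63.7 CPM in 5XFAD NX and 46.8, 44.5, 71.1, 48.6 and 63 CPM in 5XFAD CIH in females. Male values were 27.2, 24.3, 22.4, 27.8 and 31.6 CPM in WT NX, 23.9, 29.3, 26.2, 27.1 and 26.6 CPM in WT CIH, 40.4, 36, 36.8, 61.4 and 46.2 CPM in 5XFAD NX and 31.3, 44.9, 36.2, 38.8 and 42.8 CPM in 5XFAD CIH. Except for F 5XFAD NX 4 among NX females, and with a narrow margin in CIH males, 5XFAD lay above WT. Each log2FC was below 1 with an adjusted p below 0.05. The values were 0.91 (SE 0.22, adjusted p = 0.0324) and 0.85 (SE 0.14, adjusted p = 0.000183) in NX and CIH females and 0.73 (SE 0.17, adjusted p = 0.00838) and 0.55 (SE 0.11, adjusted p = 0.00106) in NX and CIH males by edgeR.

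Of the 18 antiviral effectors, 17 were tested. In females 10 rose under NX, and 10 rose and 1 fell under CIH. In males 11 rose and 1 fell under NX, and 11 rose and 2 fell under CIH. Ifit3, which binds other IFIT proteins that hold viral RNA, had 14.6, 8.68, 15.2 and 20.2 CPM in WT NX, 37.5, 14.9, 12.7, 13.1 and 14.2 CPM in WT CIH, 92.8, 41.4, 53.3, 20.4 and 60.4 CPM in 5XFAD NX and 36, 37.8, 64.7, 35.7 and 58.2 CPM in 5XFAD CIH in females. Its male libraries had 17.5, 14.4, 13, 23.6 and 27.5 CPM in WT NX, 15.4, 13.2, 9.62, 9.84 and 11.7 CPM in WT CIH, 62.6, 67, 67.9, 45.3 and 32.7 CPM in 5XFAD NX and 31.3, 41.3, 40.5, 53.8 and 54.6 CPM in 5XFAD CIH. Ifit3 was separate between genotypes in every comparison but CIH females, where F WT CIH 1 at 37.5 CPM reached into the 5XFAD range. The log2FC of Ifit3 was 1.87 (SE 0.39, adjusted p = 0.0226), 1.35 (SE 0.29, adjusted p = 0.00183), 1.53 (SE 0.25, adjusted p = 0.000956) and 1.90 (SE 0.18, adjusted p = 8.75e-07) in NX females, CIH females, NX males and CIH males by edgeR.

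Ifit3b, the near-identical copy, measured 3.49, 1.5, 3.28 and 4.04 CPM in WT NX, 7.05, 2.44, 2.58, 2.67 and 2.17 CPM in WT CIH, 14.2, 5.46, 8.36, 3.82 and 11.4 CPM in 5XFAD NX and 3.98, 8.88, 14.8, 6.74 and 12.7 CPM in 5XFAD CIH in females. In males Ifit3b measured 4.92, 2.09, 3.38, 6.17 and 4.65 CPM in WT NX, 4.88, 2.22, 1.73, 2.52 and 2.59 CPM in WT CIH, 11.4, 14.1, 11.5, 9.32 and 6.55 CPM in 5XFAD NX and 3.86, 3.82, 4.57, 10.2 and 10.4 CPM in 5XFAD CIH. Overlap between genotypes was seen in all but NX males. Rises of 1.48 (SE 0.41, adjusted p = 0.0444) and 1.5 (SE 0.38, adjusted p = 0.00507) in NX and CIH females and 1.32 (SE 0.30, adjusted p = 0.00803) and 1.25 (SE 0.37, adjusted p = 0.0117) in NX and CIH males were called by edgeR. Ifit1 and Ifit2, RNA-binding proteins of the same family, rose as well in all 4 comparisons. Ifit1 rose by 1.38 (CIH females) to 2.05 (NX males) and Ifit2 by 1.79 (CIH females) to 2.21 (NX females) on the log2 scale.

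Rsad2, which encodes viperin, a maker of a chain-terminating nucleotide, had 9.66, 1.68, 3.53 and 6.32 CPM in WT NX, 8.82, 4.28, 4.2, 3.03 and 2.99 CPM in WT CIH, 27.1, 10.3, 20.1, 6.46 and 23.5 CPM in 5XFAD NX and 11.9, 12.5, 24.7, 11.9 and 20.7 CPM in 5XFAD CIH in females. For males the values were 3, 1.97, 0.489, 2.62 and 4.13 CPM in WT NX, 2.69, 2.81, 2.37, 3.21 and 4.78 CPM in WT CIH, 10.9, 12.9, 10.4, 12.1 and 9.5 CPM in 5XFAD NX and 6.79, 5.88, 6.15, 7.25 and 10.1 CPM in 5XFAD CIH. NX females overlapped through F WT NX 1 and F 5XFAD NX 4, and the other 3 comparisons did not overlap. Rsad2 rose in CIH females (1.83, SE 0.31, adjusted p = 0.000257), NX males (2.20, SE 0.40, adjusted p = 0.00221) and CIH males (1.19, SE 0.24, adjusted p = 0.00102) by edgeR. It was not called in NX females (1.71, SE 0.53, adjusted p = 0.0586). Without F 5XFAD NX 4 its log2FC there was 1.90 and was called. Cmpk2, a nucleotide kinase encoded beside Rsad2, rose in all 4 comparisons by 1.31 (CIH males) to 1.53 (CIH females) on the log2 scale.

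Bst2, the membrane tether tetherin that holds budding virus at the cell surface, had 94.1, 57.5, 84.9 and 74.3 CPM in WT NX, 88.3, 60.1, 66.7, 74.3 and 73.4 CPM in WT CIH, 223, 181, 150.4, 65.9 and 237 CPM in 5XFAD NX and 176, 133, 154, 163 and 203 CPM in 5XFAD CIH in females. In males Bst2 had 89.5, 78.4, 83.4, 135 and 123 CPM in WT NX, 70.1, 64.1, 60.2, 60.4 and 56.5 CPM in WT CIH, 332, 254, 288, 128 and 115 CPM in 5XFAD NX and 178, 140.0, 214, 284 and 366 CPM in 5XFAD CIH. F 5XFAD NX 4 and M 5XFAD NX 4 and 5 lay among the WT NX values. Under CIH the genotypes did not overlap. Bst2 rose by 1.14 (SE 0.32, adjusted p = 0.0457) and 1.21 (SE 0.12, adjusted p = 1.99e-06) in NX and CIH females and 1.13 (SE 0.29, adjusted p = 0.0154) and 1.93 (SE 0.20, adjusted p = 3.26e-06) in NX and CIH males on the log2 scale (edgeR).

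Ifi44, an interferon-induced protein, had the largest rise of the members in NX females. It was measured at 2.54, 0.695, 0.819 and 2.16 CPM in WT NX, 2.33, 0.475, 1.38, 1.44 and 1.14 CPM in WT CIH, 24.1, 8.18, 9.75, 1.41 and 19 CPM in 5XFAD NX and 7.13, 8.83, 14.3, 8.29 and 11.2 CPM in 5XFAD CIH in females. Male levels were 0.812, 0.239, 0.978, 1.01 and 1.66 CPM in WT NX, 0.938, 0.838, 0.449, 0.684 and 0.231 CPM in WT CIH, 4.77, 5.17, 5.57, 4.13 and 4.5 CPM in 5XFAD NX and 4.01, 4.88, 1.2, 4.31 and 3.76 CPM in 5XFAD CIH. Its levels were low, and only F 5XFAD NX 4 overlapped with WT controls. Its edgeR log2FC came to 2.98 (SE 0.73, adjusted p = 0.0328) in NX and 2.89 (SE 0.31, adjusted p = 4.86e-06) in CIH females. In NX and CIH males it came to 2.35 (SE 0.42, adjusted p = 0.00176) and 2.53 (SE 0.45, adjusted p = 0.000374).

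Slfn2, a Schlafen protein of immune cells, measured 47.9, 22.3, 29.2 and 39.4 CPM in WT NX, 49.9, 27.7, 23.2, 29.4 and 25.2 CPM in WT CIH, 77.5, 49.1, 52.1, 38.3 and 60.7 CPM in 5XFAD NX and 44.6, 36.2, 45.8, 51.1 and 62 CPM in 5XFAD CIH in females. It was measured at 31.7, 23.4, 30.2, 35.3 and 40.5 CPM in WT NX, 32.3, 28.6, 31.7, 33.2 and 29.8 CPM in WT CIH, 67.1, 64.3, 68.9, 43.6 and 40.9 CPM in 5XFAD NX and 53.6, 52.9, 44.1, 67.9 and 58.4 CPM in 5XFAD CIH in males. Genotypes overlapped in females and not in males. The log2FC values, 0.68 (SE 0.24, adjusted p = 0.0863) and 0.64 (SE 0.19, adjusted p = 0.014) in NX and CIH females and 0.82 (SE 0.19, adjusted p = 0.00855) and 0.84 (SE 0.11, adjusted p = 3.45e-05) in NX and CIH males, were below the limit of 1 (edgeR). Slfn5, of the same family, rose in all 4 comparisons by 2.01 (CIH males) to 2.26 (NX males) on the log2 scale. Xaf1, a proapoptotic factor, rose in 3 of them. Its log2FC was 0.71 in the CIH females, where it was not called.

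The guanylate-binding proteins, GTPases that coat intracellular pathogens, held all the falls called among the members. Gbp7, Gbp3 and Gbp2 lie close together on chromosome 3. Gbp7 had 57.6, 77.4, 61.1 and 65 CPM in WT NX, 73.4, 63.3, 62.8, 71.8 and 62.6 CPM in WT CIH, 40.2, 17, 31.6, 51.5 and 32.3 CPM in 5XFAD NX and 17.4, 25.1, 34.7, 26.4 and 28.8 CPM in 5XFAD CIH in females. Gbp7 had 40.5, 38.2, 42.2, 36.2 and 38.8 CPM in WT NX, 55, 49.1, 51.5, 49.1 and 40.4 CPM in WT CIH, 21.9, 14.1, 14.3, 18.4 and 22.2 CPM in 5XFAD NX and 15.2, 15.4, 16.6, 13.2 and 12.1 CPM in 5XFAD CIH in males. Every 5XFAD library was below every WT library of its sex and treatment. Gbp7 fell in CIH females (−1.32, SE 0.13, adjusted p = 3.43e-06), NX males (−1.10, SE 0.15, adjusted p = 0.000297) and CIH males (−1.75, SE 0.12, adjusted p = 5.8e-08) by edgeR. In NX females its log2FC of −0.91 (SE 0.26, adjusted p = 0.0457) was short of the limit.

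Gbp3 levels in females were 16.4, 16.2, 14.4 and 13.3 CPM in WT NX, 16.9, 15, 12.2, 15.1 and 14 CPM in WT CIH, 13.4, 5.92, 12.8, 14.6 and 15.8 CPM in 5XFAD NX and 6.62, 8.16, 9.41, 9.24 and 10.5 CPM in 5XFAD CIH. In males they were 19.2, 19.2, 16.5, 18.7 and 20.4 CPM in WT NX, 24.4, 20.02, 25.1, 20.7 and 24.4 CPM in WT CIH, 18.4, 13.7, 8.97, 11.2 and 11.7 CPM in 5XFAD NX and 10.2, 13.2, 14.2, 10.8 and 7.84 CPM in 5XFAD CIH. Under CIH the genotypes were separate in both sexes, with 5XFAD lower, and under NX they overlapped. Gbp3 fell in CIH males (−1.01, SE 0.16, adjusted p = 0.000138) by edgeR, a call close to the limit that was lost in 6 of 20 alternatives, each leaving out 1 library. It was not called in NX males (−0.55, SE 0.18, adjusted p = 0.058), CIH females (−0.72, SE 0.13, adjusted p = 0.000323) or NX females (−0.27, SE 0.24, adjusted p = 0.45).

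Gbp2 had 12, 9.14, 11.1 and 12.1 CPM in WT NX, 16.7, 9.45, 10.1, 8.99 and 7.94 CPM in WT CIH, 43.1, 9.58, 21.2, 11.3 and 45 CPM in 5XFAD NX and 12, 9.76, 15, 11.4 and 22.3 CPM in 5XFAD CIH in females. Males held 6.5, 4.59, 10.96, 11.9 and 12.8 CPM in WT NX, 11.01, 7.79, 9.37, 8.1 and 10.3 CPM in WT CIH, 45.2, 15.6, 15.2, 8.32 and 13.1 CPM in 5XFAD NX and 18.4, 7.86, 13.2, 11.1 and 11.1 CPM in 5XFAD CIH. The highest values of Gbp2 were those of F 5XFAD NX 1 and 5 and M 5XFAD NX 1, at 43.1 to 45.2 CPM, and the genotypes overlapped throughout. The log2FC was 1.23 (SE 0.45, adjusted p = 0.0905) and 0.42 (SE 0.24, adjusted p = 0.154) in NX and CIH females and 1.06 (SE 0.42, adjusted p = 0.109) and 0.41 (SE 0.20, adjusted p = 0.108) in NX and CIH males, not called by edgeR. Without F 5XFAD NX 4 in females, and without M 5XFAD NX 4 and 5 in males, the difference under NX was called. Without M 5XFAD NX 1 the male log2FC of Gbp2 was 0.49 (adjusted p = 0.335), and without F 5XFAD NX 1 or 5 the female one was 0.98 (adjusted p = 0.195) or 0.94 (adjusted p = 0.199).

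**Figure D3:**
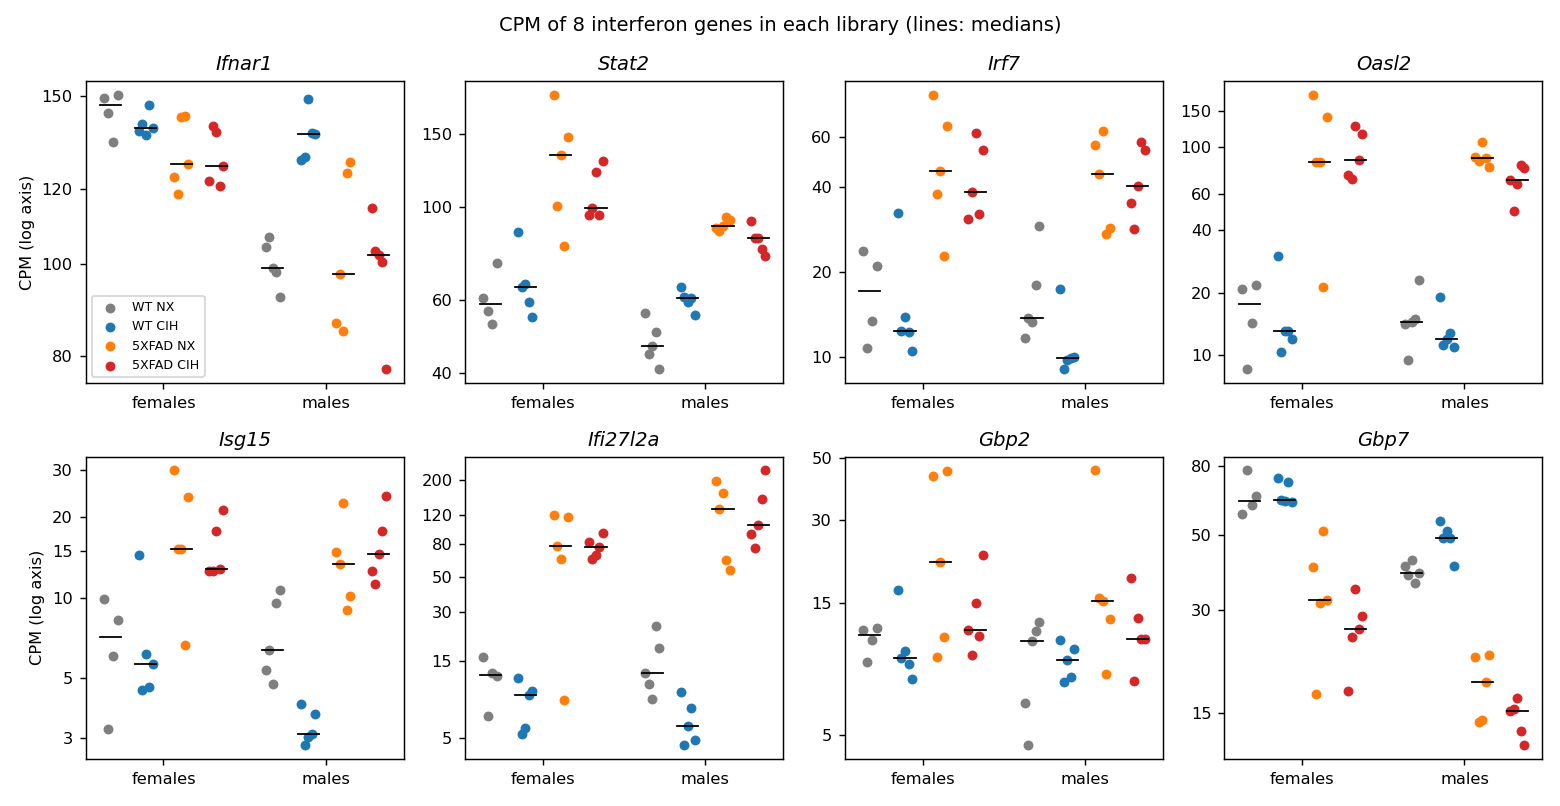
CPM on a log axis (vertical) in each library for Ifnar1, Stat2, Irf7, Oasl2, Isg15, Ifi27l2a, Gbp2 and Gbp7, by sex, genotype and treatment, with 1 point per library and a line at the group median. Ifi27l2a and Oasl2 separate the genotypes widely, except for F 5XFAD NX 4 at 8.52 CPM for Ifi27l2a and 21.3 CPM for Oasl2. Ifnar1 overlaps between genotypes in all but CIH males, and Gbp7 is lower in 5XFAD.

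Modifiers and brakes were called higher for 3 of 7 members in NX females, CIH females and NX males and for 4 in CIH males. Isg15, a ubiquitin-like protein that is joined to other proteins, was measured at 9.92, 3.24, 6.04 and 8.25 CPM in WT NX, 14.4, 4.52, 6.18, 4.63 and 5.67 CPM in WT CIH, 29.97, 15.2, 15.3, 6.64 and 23.8 CPM in 5XFAD NX and 12.6, 12.7, 17.8, 12.8 and 21.3 CPM in 5XFAD CIH in females. In the males it was measured at 5.38, 6.38, 4.77, 9.6 and 10.7 CPM in WT NX, 4, 2.81, 3.02, 3.1 and 3.69 CPM in WT CIH, 14.8, 13.3, 22.7, 8.99 and 10.1 CPM in 5XFAD NX and 12.6, 11.2, 14.5, 17.8 and 24 CPM in 5XFAD CIH. Under NX the genotypes overlapped in both sexes, through F 5XFAD NX 4 and through M 5XFAD NX 4 and 5, and in CIH females through F WT CIH 1. Isg15 rose in CIH females (1.14, SE 0.29, adjusted p = 0.00553) and CIH males (2.28, SE 0.22, adjusted p = 1.13e-06), where its level was 4.85-fold that of WT. By edgeR it was not called in NX females (1.39, SE 0.43, adjusted p = 0.0562) or NX males (0.93, SE 0.30, adjusted p = 0.0463). It was called under NX without F 5XFAD NX 4 (log2FC 1.60, adjusted p = 0.00345) and without M 5XFAD NX 4 and 5 together.

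Usp18, the protease that removes Isg15 and dampens signalling at Ifnar2, had 10.5, 6.25, 6.86 and 12.2 CPM in WT NX, 16.8, 7.49, 6.96, 5.91 and 5.47 CPM in WT CIH, 59.8, 32.6, 34.6, 12.2 and 42.5 CPM in 5XFAD NX and 26.7, 26.9, 39.7, 30.8 and 40.8 CPM in 5XFAD CIH in females. Its values in males were 8.18, 6.86, 3.91, 10.7 and 10.5 CPM in WT NX, 6.32, 5.42, 3.91, 5 and 5.88 CPM in WT CIH, 33.5, 41.5, 37.8, 24 and 22.3 CPM in 5XFAD NX and 25.1, 24.8, 21.6, 35.6 and 29.4 CPM in 5XFAD CIH. F 5XFAD NX 4 at 12.2 CPM was level with F WT NX 4, and the genotypes did not overlap otherwise. Usp18 rose by 2.01 (SE 0.40, adjusted p = 0.0197) and 1.97 (SE 0.27, adjusted p = 4.22e-05) in NX and CIH females and 1.99 (SE 0.27, adjusted p = 0.000257) and 2.37 (SE 0.17, adjusted p = 7.9e-08) in NX and CIH males on the log2 scale (edgeR).

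Ifi27l2a, a small interferon-induced protein, had the largest rise of the members in 3 of the 4 comparisons. Female libraries measured 15.9, 6.83, 12.6 and 12 CPM in WT NX, 11.8, 5.23, 5.7, 9.25 and 9.75 CPM in WT CIH, 121, 77.6, 64.2, 8.52 and 118 CPM in 5XFAD NX and 82.4, 64, 68.5, 76.2 and 93.4 CPM in 5XFAD CIH. In males the gene measured 12.5, 10.8, 8.68, 24.8 and 18.1 CPM in WT NX, 9.63, 4.49, 5.9, 7.63 and 4.84 CPM in WT CIH, 195, 132, 165, 63 and 55.1 CPM in 5XFAD NX and 91.9, 75.7, 104, 152 and 228 CPM in 5XFAD CIH. All 5XFAD libraries but F 5XFAD NX 4 exceeded their WT controls, and M 5XFAD NX 4 and 5 were the lowest of their group. Ifi27l2a rose 6.52-fold in NX females, 9.28-fold in CIH females, 8.18-fold in NX males and 20.2-fold in CIH males. The corresponding log2FC values were 2.71 (SE 0.62, adjusted p = 0.0278), 3.21 (SE 0.19, adjusted p = 2.38e-08), 3.03 (SE 0.39, adjusted p = 0.000162) and 4.34 (SE 0.31, adjusted p = 7.65e-08) by edgeR. In CIH males the genotype difference moved with gene length, with a Pearson r of −0.492 over the 44 members and −0.181 over all genes, and the median log2FC was 2.28 for the 3 members under 1 kb and 0.52 for the 18 over 4 kb. With the length trend removed, Ifi27l2a had a log2FC of 3.48 (adjusted p = 1.52e-08), Isg15 one of 1.56 (adjusted p = 1.65e-06) and Bst2 one of 1.26 (adjusted p = 2.55e-06) by edgeR, and each was still called. Rtp4, a chaperone of membrane receptors, rose in 3 of the 4 comparisons, by 1.43 in NX females, 1.15 in NX males and 1.66 in CIH males, and had 0.93 in CIH females on the log2 scale.

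Among the other tested members, Oasl1, a brake on Irf7 translation, rose in all 4 comparisons (log2FC 1.22 to 1.96), and its call in NX males was lost in 7 of 21 alternatives. Oas2 was called in females (1.30 under NX and 1.17 under CIH) and had 0.92 and 0.41 in NX and CIH males. The difference between sexes was not tested. Mx1, an antiviral dynamin-like GTPase, rose in 3 comparisons and had 0.72 in CIH males. Ifi209, a PYHIN protein, rose in the same 3 and had 0.65 in CIH males. Isg20, an exonuclease that degrades single-stranded RNA, rose in CIH males alone (1.36). Dhx58, Eif2ak2 (the kinase PKR), Mx2, Parp14, Trim30a and Ifi35 were not called in any genotype comparison, with log2FC values from −0.08 (Parp14 in CIH males) to 0.95 (Eif2ak2 in NX males).

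Members with and without the ISRE letters were both higher in 5XFAD. Median log2FC of members with and without the motif was 1.31 and 1.16 in NX females, 1.17 and 0.89 in CIH females, 1.10 and 1.10 in NX males, and 1.22 and 1.02 in CIH males. Gbp3 and Gbp7, which fell in CIH males, and Gbp2, which did not, all hold the motif.

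CIH was compared with NX within each genotype to ask whether the exposure moved the members. In WT females 0 of 44 were called by edgeR, where 0% of all genes were called, and 1 had an unadjusted p below 0.05, namely Irf1 with a log2FC of 0.19, against 3.87% of all genes. The median log2FC of the members was −0.05, with 25 of 44 values below 0. Without F WT CIH 1 it was −0.27, with 39 below 0 and 4 at an unadjusted p below 0.05 (2.97% of all genes), and without F WT NX 1 it was 0.05, with 10 below 0. DESeq2 called 0 as well. In 5XFAD females 0 members were called by edgeR or DESeq2, where 0% of all genes were called, and 0 had an unadjusted p below 0.05 (3.22% of all genes). There 40 of 44 log2FC values were below 0 with a median of −0.14. Without F 5XFAD NX 1 the count was 17 with a median of 0.02. Without F 5XFAD NX 4 it was 43, with a median of −0.31 and 10 members at an unadjusted p below 0.05, where 7.47% of all genes were. The direction in 5XFAD females therefore rested on F 5XFAD NX 1.

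In WT males, 0 members rose and 2 fell under CIH by edgeR, where 2.51% of all genes were called, 1.63% higher and 0.881% lower. These were Isg15, at 5.38, 6.38, 4.77, 9.6 and 10.7 CPM in NX and 4, 2.81, 3.02, 3.1 and 3.69 CPM in CIH, and Ifi27l2a, at 12.5, 10.8, 8.68, 24.8 and 18.1 CPM in NX and 9.63, 4.49, 5.9, 7.63 and 4.84 CPM in CIH. Every CIH library of Isg15 was below every NX library, whereas M WT CIH 1 overlapped for Ifi27l2a. Neutrophil markers also differed, with sums of 189.7 to 1053 CPM (median 376.3) in WT NX and 90.6 to 266.4 CPM (median 110.9) in WT CIH males. Within WT NX, M WT NX 5, with the highest Isg15, held 1053 CPM, M WT NX 3, with the lowest Isg15 and Ifi27l2a, held 704.9 CPM, and M WT NX 4, with the highest Ifi27l2a, held 376.3 CPM. The part of these markers in the falls was not tested. log2FC was −1.14 (SE 0.25, adjusted p = 0.00379) for Isg15 and −1.20 (SE 0.28, adjusted p = 0.00493) for Ifi27l2a by edgeR. With the size limit set aside, 14 members had an adjusted p below 0.05, against 28.6% of all genes. Of these, Ifnar1 (0.45), Parp14 (0.41), Ddx58 (0.35), Stat2 (0.34), Gbp7 (0.32) and Trim30a (0.27) were higher in CIH. Isg20 (−0.86), Bst2 (−0.71), Ifit3 (−0.68), Dhx58 (−0.48), Rtp4 (−0.47) and Ifnar2 (−0.30) were lower in CIH, beside the called pair.

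Gene length moved with these differences. Over the 44 members, the log2FC of CIH over NX in WT males and log2 gene length had a Pearson r of 0.702 and a Spearman rho of 0.585, and over all 14983 genes tested the values were 0.237 and 0.362. These points share libraries and scaling, and are given as a description. The 3 members under 1 kb had a median log2FC of −1.14 and the 18 members over 4 kb one of 0.23, where all genes of these lengths had −0.37 and 0.14. By library, the Spearman rho with length was 0.049 to 0.208 in WT CIH and −0.195 to 0.017 in WT NX males. With a length trend over all genes removed, Isg15 had a log2FC of −0.73 (adjusted p = 0.0333) and Ifi27l2a one of −0.79 (adjusted p = 0.0297) by edgeR. In that fit 0 members were called, where 2.22% of all genes were. Isg15 was also lost without M WT NX 5 (−0.97) and Ifi27l2a without M WT NX 4 (−0.94). Both were lost when all 4 male groups were fitted together, where 0% of all genes were called.

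**Figure D4:**
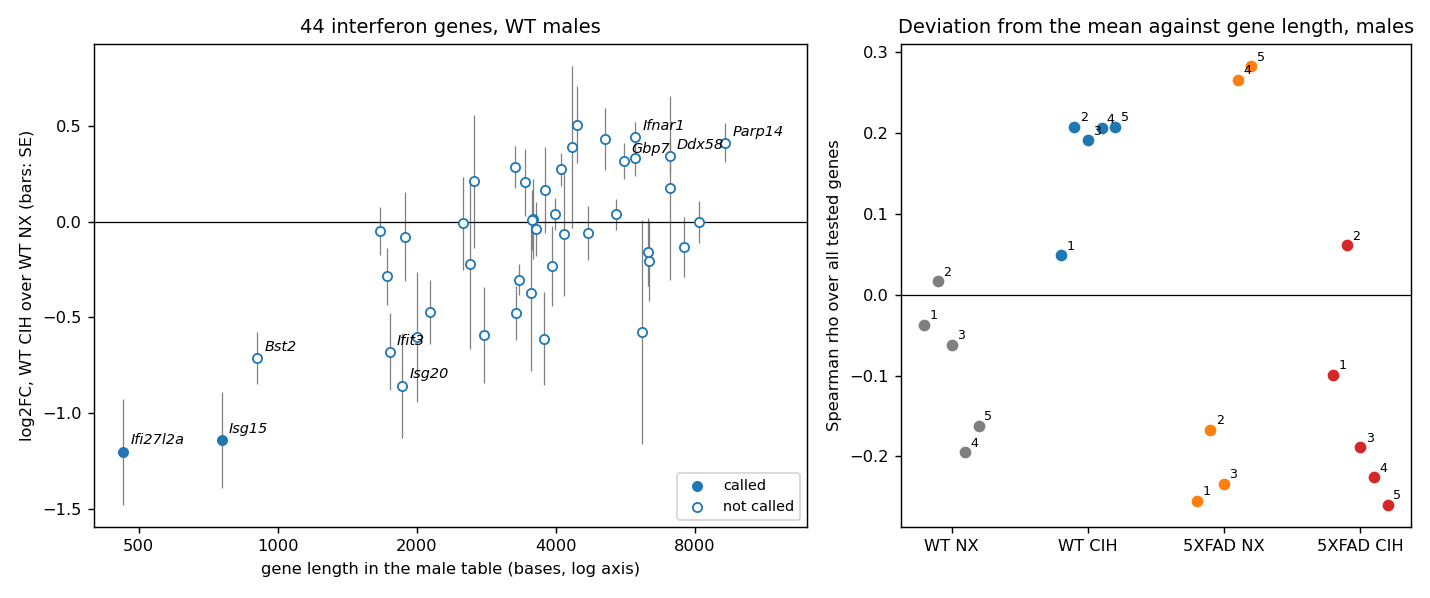
log2FC of CIH over NX in WT males (vertical axis) against gene length in bases on a log axis (horizontal) for the 44 tested members with bars of 1 SE (left), and Spearman's rho between a gene's deviation in the library and its length over all tested genes in each male library, numbered by replicate (right). Short members such as Isg15 (−1.14) and Ifi27l2a (−1.20) lie low and long members such as Ifnar1 (0.45) and Parp14 (0.41) lie high, and M 5XFAD NX 4 and 5 at 0.266 and 0.283 lie above all other male libraries in rho.

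In 5XFAD males 0 members were called by edgeR or DESeq2 and 7 had an unadjusted p below 0.05, where edgeR called 0% of all genes, DESeq2 called 1 gene, and 2.16% of all genes were lower at that p by edgeR. At either direction the share of all genes was 3.3%. All 7 were lower under CIH, and Rsad2 had the largest difference of them, with 10.9, 12.9, 10.4, 12.1 and 9.5 CPM in NX and 6.79, 5.88, 6.15, 7.25 and 10.1 CPM in CIH. Its log2FC was −0.63 (SE 0.19, adjusted p = 0.995) by edgeR, and M 5XFAD CIH 5 lay within the NX range. The others were Ifi209 (−0.43), Slfn5 (−0.41), Oasl2 (−0.37), Ifit2 (−0.37), Mx1 (−0.33) and Sp100 (−0.27). Negative values were found for 38 of 44 members with a median log2FC of −0.20 with every library in. Without M 5XFAD NX 4 and 5, the same number were negative, with a median of −0.26 and 11 at an unadjusted p below 0.05, where 9.11% of all genes were. Endothelial marker sums were 145.9 to 167.1 CPM in 5XFAD NX and 97.7 to 143 CPM in 5XFAD CIH males, and their part was not tested.

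Whether CIH acted differently by genotype was tested as an interaction in each sex. In females 0 members were called by edgeR or DESeq2 (0% of all genes). Irf1 was the 1 member with an unadjusted p below 0.05 (−0.47), against 3.78% of all genes. In males 0 members were called by edgeR (0% of all genes), and 12 had an unadjusted p below 0.05 where 24.4% of all genes did, with adjusted p values of at least 0.117. The 12 comprised 8 that were lower, among them Rsad2 (−1.01), Eif2ak2 (−0.95) and Gbp7 (−0.65), and 4 were higher, namely Isg15 (1.34), Ifi27l2a (1.30), Bst2 (0.79) and Ifnar2 (0.33). DESeq2 called 1 member, Isg15, with an adjusted p of 0.0358, where it called 2.06% of all genes. These interaction values had a Pearson r of −0.704 with log2 gene length over the 44 members, where all genes had −0.203.

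Other genes of the pathway were followed in a list of 52, with 8 ligands, 15 signalling genes and 29 further targets, of which 44 were tested. None of the ligand genes passed the filter. In NX females 7 rose and 0 fell, in CIH females 8 rose and 0 fell, in NX males 8 rose and 0 fell, and in CIH males 9 rose and 1 fell, beside 5.99%, 13%, 8.25% and 18.7% of all genes called in the same order. Ikbke, a kinase that activates interferon regulatory factors, rose in CIH females (1.88, SE 0.36, adjusted p = 0.000646), NX males (2.71, SE 0.58, adjusted p = 0.00567) and CIH males (1.08, SE 0.35, adjusted p = 0.0197) by edgeR.

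Among the further targets, Lgals3bp had the largest rise in NX females and in CIH males and Oas1g in the other 2 comparisons. Lgals3bp, a secreted glycoprotein, rose by a log2FC of 2.71 (SE 0.49, adjusted p = 0.0175) and 2.67 (SE 0.15, adjusted p = 1.44e-08) in NX and CIH females and 2.36 (SE 0.18, adjusted p = 1.89e-06) and 3.01 (SE 0.13, adjusted p = 7.39e-10) in NX and CIH males by edgeR. Oas1g, the close copy of Oas1a, rose by 2.54 (SE 0.56, adjusted p = 0.0253), 2.78 (SE 0.23, adjusted p = 5.31e-07), 2.64 (SE 0.42, adjusted p = 0.000789) and 2.83 (SE 0.22, adjusted p = 1.59e-07) in the same order. Gbp5, a further guanylate-binding protein of chromosome 3, was the 1 listed gene that fell, in CIH males (−1.11, SE 0.18, adjusted p = 0.000181). In each comparison of CIH with NX and in both interactions, 0 genes of the list were called by edgeR.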

How the data were processed

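The authors deposited, for each sex, 1 table of raw read counts per gene and 1 of FPKM values. Per the labels, reads were aligned with HISAT2 to GRCm38 (mm10), and the version and the counting tool are not given in the sources used here. Male deposited FPKM values carry 1 further factor per library, so levels per kilobase were computed from the counts and library totals, without TMM factors. Genes above 1 CPM in at least 3 samples of a comparison were tested with edgeR 4.0.16 on R 4.3.3, using limma 3.58.1. TMM factors and the quasi-likelihood F test were used, with Benjamini-Hochberg adjustment over all genes tested. A prior count of 1 was used for log2 CPM values, and the tests kept edgeR's default. SE is |log2FC| divided by the square root of F. The interaction was fitted on all 4 groups of a sex. The test was also run on simulated counts drawn independently for each gene. Such counts hold no library that moves many members together, so that check does not cover this case. DESeq2 1.42.0, other scalings and filters, a replicate block and leaving out each library were alternatives. Values in every library are given for 20 members picked by role, and for the 2 largest called rises and falls of each genotype comparison. The 45 members, the pathway list and the marker lists were chosen with earlier results of these data known. The values of 1 gene of the pathway list are not reported here. Depth, from 13457293 counts upward, limits precision for members with few counts such as Ifi44. Promoters are from RefSeq on GRCm38.p6.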

Additional observations from a re-analysis of the deposited data

Results flagged for a closer look

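Each of the 24 members with values given in every library was checked for a library far from the rest of its group (Dixon's test at the 95% level, 192 tests, of which chance gives about 1 in 20), and 20 such values were found.

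F WT CIH 1 was far above the other 4 WT CIH females for 10 members. Its CPM was 92.7 for Irf9 (others 65.2 to 71.8), 32.2 for Irf7 (10.5 to 13.9), 61.8 for Ddx58 (44.7 to 47.8), 14.0 for Zbp1 (3.87 to 5.40) and 30.1 for Oasl2 (10.3 to 13.2). It was 33.8 for Ifi204 (14.3 to 16.3), 37.5 for Ifit3 (12.7 to 14.9), 7.05 for Ifit3b (2.17 to 2.67), 14.5 for Isg15 (4.52 to 6.19) and 16.8 for Usp18 (5.47 to 7.49).

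F 5XFAD NX 4 was far below its group for Irf9 at 74.0 CPM (others 106.2 to 117), for Ifi27l2a at 8.52 CPM (64.2 to 121) and for Oas1a at 15.04 CPM (60.9 to 96.2). F 5XFAD NX 2 was far below its group for Gbp3 at 5.92 CPM (12.8 to 15.8). F 5XFAD CIH 5 was far above its group for Irf9 at 106.7 CPM (88.3 to 92.8) and for Irf1 at 85.7 CPM (69.3 to 72.6). M WT CIH 1 was far above its group for Irf7 at 17.4 CPM (9.02 to 9.97) and for Oasl2 at 19.2 CPM (10.95 to 12.8). M WT CIH 3 was far below its group for Oas1a at 4.36 CPM (7.16 to 7.90), and M 5XFAD CIH 3 for Ifi44 at 1.20 CPM (3.76 to 4.88). What sets these libraries apart was not tested.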

How the results depend on the processing

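Counts of members called in NX females (25 in the fit reported) were 0 at an FDR of 0.01 and 0 to 31 when 1 library was left out (0.189% to 13.3% of all genes). In CIH females an FDR of 0.05 without the size limit gave 39 in place of 25, where 51.9% of all genes passed. In WT males under CIH, 2 members were called (2.51% of all genes). With all 4 groups in one fit, 0 members and 0% of all genes were called. With the gene length trend removed (chosen after seeing the data), 0 members and 2.22% of all genes were. At FDR alone 14 members passed (28.6%), and leaving out 1 library gave 1 to 3 (1.81% to 4.18%). For the male interaction, 0 were called by edgeR, 1 by DESeq2 (2.06% of all genes) and 1 by the likelihood ratio test (1.11%). With no filter on low counts 2 were called (2.06%), and with 1 library left out 0 to 1 (0% to 3.03%). The cause of these changes was not tested. Leaving out 1 library gave 23 to 26 in CIH females (12.2% to 13.7% of all genes) and 24 to 27 in NX males (7.06% to 8.81%). It gave 23 to 26 in CIH males (16.4% to 20.6%) and 0 in the other comparisons (0%). Over single members, comparisons and alternatives, 5198 values stayed on their side of the call, 281 lost the call, 57 gained it, and no called value changed sign. Leaving out M 5XFAD NX 4 and 5 together was also chosen after seeing the data. It gave 27 in NX males, where 11.8% of all genes were called, against 8.25% with every library in.

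Replicate numbers were not taken to pair the samples: correlations between same-numbered libraries ran from −0.553 to 0.307, and in no comparison were all above 0.1. With the replicate block, 0 members (0.0482% of all genes) were called in NX females and 26 (13.2%) in CIH females. In NX males 20 (5.6%) were called in place of 25 (8.25%). There were 26 (18.8%) in CIH males and 2 (2.66%) in WT males under CIH.

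Depth limits the members with few counts, such as Ifi44 and Rsad2.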
